A study of Mus musculus with 6 samples.

Results

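The 39 Hox genes of the mouse were followed through 6 RNA-seq libraries of cerebellum, 3 from wild type and 3 from SnoN cKO mice, all C57BL/6 and aged 6 days. Members were taken by symbol, as every gene of the Hoxa, Hoxb, Hoxc and Hoxd clusters with a numbered name, whatever its count, out of 41088 genes in the deposited table. SnoN, a transcriptional regulator that binds Smad proteins, is encoded by Skil, and SnoN cKO stands for its conditional knockout. The driver of the deletion, the cells in which it took place and the deleted part of the gene were in none of the labels. Each library was made from total RNA and carries an animal code of its own, and in either group 1 library is labelled female and the other 2 male.

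Hox genes encode homeodomain transcription factors that give cells their position along the body axis. They lie in 4 clusters, and the order of genes along a cluster follows the order in which they are used from hindbrain to tail. Genes at the same place in different clusters form a paralogue group and carry the same number. Low-numbered groups act in the hindbrain and high-numbered groups in spinal cord and caudal body. The cerebellum arises from the foremost segment of the hindbrain, which lies ahead of the Hox domain.

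Libraries held between 12605870 and 17757711 counts on genes. Levels are given as read counts and as CPM, the count divided by the library total scaled with edgeR's TMM factors, times 1000000. Skil itself was at 89.5, 87.5 and 88.9 CPM in wild type 1, 2 and 3 and at 76.0, 74.7 and 77.5 CPM in SnoN cKO 1, 2 and 3, a log2 fold change of -0.22 (SE 0.04, adjusted p of 0.637 by edgeR's quasi-likelihood test). The gene identifiers of the table did not belong to the symbols beside them. Of 40254 identifiers known to GENCODE M21, 97 stood beside their own symbol, and none of the 39 Hox rows did, so genes were read by symbol and no identifier is given. By symbol, Xist and the Y-linked genes each marked a separate set of libraries, yet SnoN cKO 1, labelled female, had 35 counts of Xist and 1146 of Ddx3y, and SnoN cKO 2, labelled male, had 37467 and 0. Both carry the same genotype label, so the genotype groups do not depend on which of them is which. SnoN cKO 2 also stood apart in choroid plexus RNA, with Ttr at 17.3 CPM against 1641 to 3209 CPM in the other 5 libraries. For the sum of all Hox genes, the sum of group 5 and members with a fit, values without SnoN cKO 1 and 2 are given where they moved by over 1.5 times. For sums of other groups and of clusters they are not given. In groups 3 and 4 SnoN cKO 3 stood well above the knockout mean, at 2.82 against 1.30 CPM and 2.23 against 1.11 CPM.

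Windows of 250 bases before the start of transcription were available from RefSeq (GRCm38.p6) for 22 of the 39 genes. They are shown for 3 members whose counts behaved differently across the libraries. Hoxa2 overlapped between the genotypes, Hoxa5 did not, and Hoxd8 had nearly the same count in every library. Capitals mark a HOX-PBX motif (TGATTNAT) or a MEIS motif (TGACAG) on either strand, the letters bound by Hox proteins with their cofactors.
Hoxa2, chr6:52164832-52165081, minus strand: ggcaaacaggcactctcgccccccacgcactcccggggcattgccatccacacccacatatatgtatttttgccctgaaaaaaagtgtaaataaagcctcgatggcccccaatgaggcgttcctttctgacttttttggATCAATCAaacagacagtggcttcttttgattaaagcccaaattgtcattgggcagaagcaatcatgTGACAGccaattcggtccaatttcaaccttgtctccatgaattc
Hoxa5, chr6:52204588-52204837, minus strand: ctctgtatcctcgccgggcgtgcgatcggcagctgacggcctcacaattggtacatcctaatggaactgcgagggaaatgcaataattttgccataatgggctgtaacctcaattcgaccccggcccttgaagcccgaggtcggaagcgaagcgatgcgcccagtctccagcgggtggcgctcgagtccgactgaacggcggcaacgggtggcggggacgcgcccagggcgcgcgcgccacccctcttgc
Hoxd8, chr2:74704365-74704614, plus strand: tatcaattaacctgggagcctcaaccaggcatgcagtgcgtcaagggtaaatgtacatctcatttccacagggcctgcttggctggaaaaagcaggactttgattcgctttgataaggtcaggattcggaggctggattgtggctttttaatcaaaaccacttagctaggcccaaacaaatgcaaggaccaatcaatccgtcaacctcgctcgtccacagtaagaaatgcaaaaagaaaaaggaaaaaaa

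The Hoxa2 window held both motifs, and the windows of Hoxa5 and Hoxd8 held neither. Among 24 windows of the 22 genes, 2 (8.33%) held the HOX-PBX motif, those of Hoxa2 and Hoxd11, against 2.82% of 32851 windows of all genes. The MEIS motif was in 2 Hox windows (8.33%), those of Hoxa2 and Hoxa3, against 15.9% of all. A homeodomain core (TAATTA) was in 2 Hox windows (8.33%), both of Hoxd11, against 4.84% of all. A match is a description of the letters and not a binding site. The median Hox window was 58.6% G or C with 12.5 CpG pairs, against 52.4% and 6 over all windows. The Hoxa5 window had 63.6% G or C and 28 CpG pairs, that of Hoxa2 46.4% and 6, and that of Hoxd8 44.4% and 6.

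Hox reads were few in every library. They came to 152, 293 and 97 counts in wild type 1, 2 and 3, or 11.9, 19.5 and 7.56 CPM, and to 73, 33 and 164 counts in SnoN cKO 1, 2 and 3, or 5.72, 2.23 and 9.62 CPM. The genotypes overlapped, since SnoN cKO 3 lay above wild type 3. Wild type averaged 12.97 ± 6.02 CPM (SD, n = 3) and the knockouts averaged 5.86 ± 3.70 CPM (SD, n = 3), a ratio of 0.452. Without SnoN cKO 1 and 2 the ratio was 0.741. In bulk tissue, fewer cells of a type and less RNA per cell cannot be told apart.

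**Figure D1:**
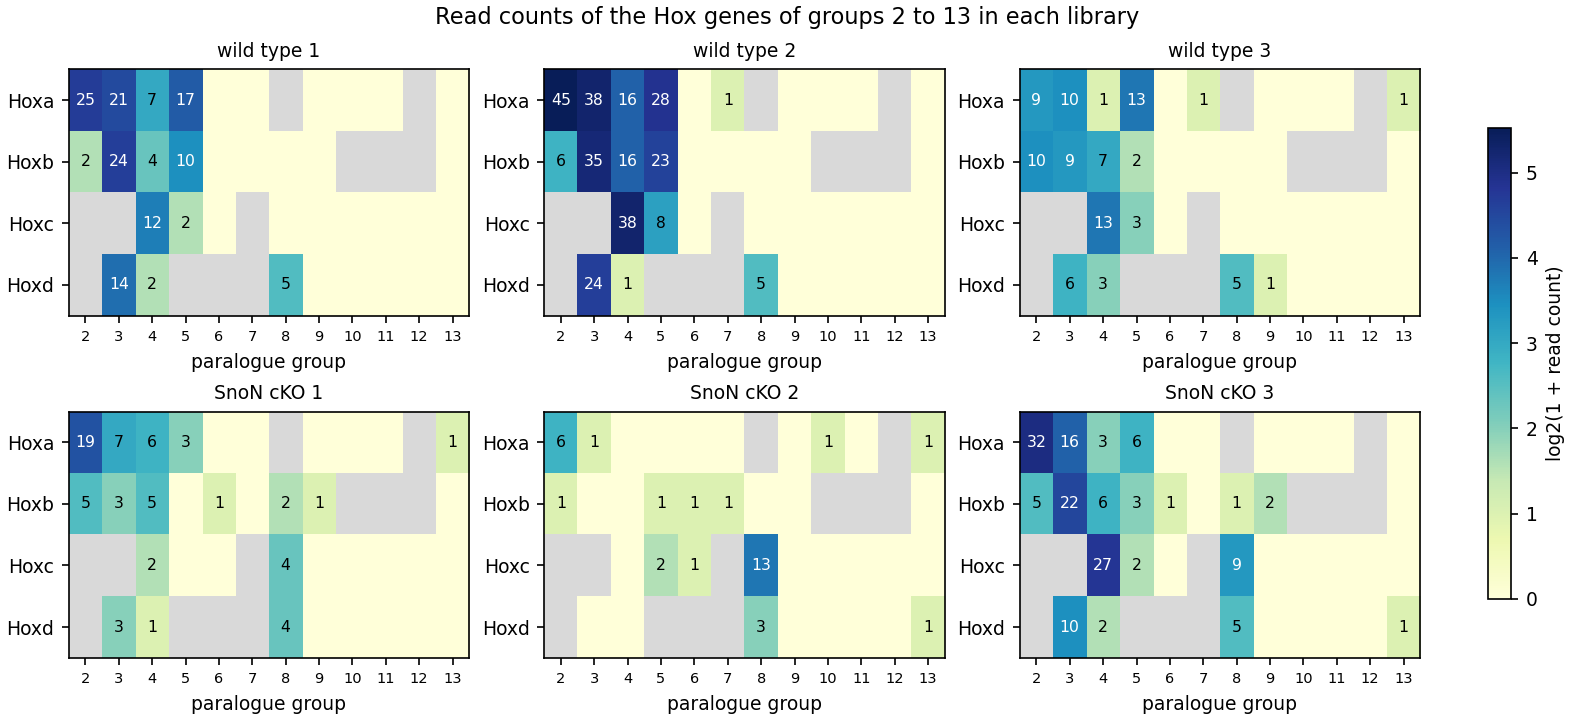
Read counts of the Hox genes of groups 2 to 13 in each library, with a row for each cluster and a column for each paralogue group. Colour gives log2(1 + read count), numbers are read counts above 0, pale cells without a number are at 0, and grey cells have no gene in the mouse. Most of these reads lie in groups 2 to 5 in all libraries but SnoN cKO 2, and Hoxc8 has 4, 13 and 9 counts in SnoN cKO and 0 in wild type.

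Most Hox reads belonged to the groups of the hindbrain. Of the 39 genes, 26 had at least 1 count and 13 had none, among them Hoxb1, Hoxb13 and all 5 members of groups 11 and 12. At least 10 counts in all were reached by 14 genes, and the other 12 had between 1 and 9. Of the 26, 16 had a lower mean in SnoN cKO and 10 a higher mean. A lower mean was found in 50.3% of all 26195 genes with a count. No overlap between the genotypes was found in 4 members that were lower in SnoN cKO (Hoxd1, Hoxa5, Hoxc5 and Hoxd8), against 5.22% of all genes with a count. They did not overlap in 2 members that were higher (Hoxb6 and Hoxc8), against 5.45% of such genes. Of the 14 members with at least 10 counts, 12 had a lower mean in SnoN cKO, against 50.9% of all genes at that count. Among those 14 the genotypes were apart in 3 lower members (Hoxa5, Hoxc5 and Hoxd8), against 6.32% of such genes, and in 1 higher member (Hoxc8), against 6.77%.

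The direct test reached few members. Only Hoxa2, Hoxa3, Hoxa5, Hoxb3 and Hoxc4 passed edgeR's filter on low counts, and Hoxa5 passed it through the wild type libraries alone, so it had to differ. By the quasi-likelihood test 0 of the 5 had an adjusted p under 0.05, as in 0.0% of the 15457 genes tested, of which 1187 had an unadjusted p under 0.05. At an unadjusted p under 0.05 there were 2 of the 5, Hoxa3 and Hoxa5, both lower in SnoN cKO, against 4.47% of all genes tested in that direction, a count that the filter favours and that is not read as support. limma-voom also called 0 of the 5. It had 4 of them at an unadjusted p under 0.05, against 1207 of the 15457 genes in either direction, a count that the filter also favours. DESeq2 called 4 genes but gave an adjusted p to 1812 genes only, none of them Hox. At an unadjusted p under 0.05 it had 5 of 26 Hox genes, against 672 of 26195 genes in either direction. Hoxa3, Hoxd3, Hoxa5 and Hoxb5 were lower in SnoN cKO and Hoxc8 was higher, and this count is not read as support. Without the filter on low counts, edgeR called 2 Hox genes, Hoxa5 (adjusted p = 0.00854) and Hoxc8 (adjusted p = 0.0147), among 0.149% of 26195 genes.

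Group 2, which acts at the front of the Hox domain, had a ratio of SnoN cKO over wild type of 0.648, nearer to 1 than those of groups 3 to 5. In front of it Hoxd1 had 1, 4 and 2 counts in wild type and 0, 0 and 1 in SnoN cKO. Hoxd1 did not overlap in CPM, although wild type 1 had the same count as SnoN cKO 3. Hoxa2, which reaches further forward in the hindbrain than other Hox genes, had 25, 45 and 9 counts in wild type and 19, 6 and 32 in SnoN cKO. Wild type 2 was highest and SnoN cKO 2 lowest, and wild type 3 lay below SnoN cKO 1 and 3. In CPM it was at 1.88 ± 1.15 (SD, n = 3) and 1.26 ± 0.762 (SD, n = 3). The fitted log2 fold change was -0.59 (SE 0.54, adjusted p = 0.779 by edgeR). It lay between -1.05 without SnoN cKO 3 and -0.061 without wild type 2, and was -0.034 without SnoN cKO 1 and 2. Hoxb2, its paralogue and a gene of hindbrain segments, had 2, 6 and 10 counts against 5, 1 and 5. Summed over both genes, group 2 averaged 2.33 ± 0.971 CPM in wild type (SD, n = 3) against 1.51 ± 0.907 CPM (SD, n = 3), with overlap.

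Group 3, whose genes act in the middle and caudal hindbrain, held the most counts in wild type. Hoxa3 had 21, 38 and 10 counts in wild type and 7, 1 and 16 in SnoN cKO. Its log2 fold change was -1.64 (SE 0.60, adjusted p = 0.637 by edgeR), -2.48 without SnoN cKO 3 and -0.83 without SnoN cKO 1 and 2. Hoxb3 had 24, 35 and 9 counts against 3, 0 and 22, with a log2 fold change of -1.57 (SE 0.74, adjusted p = 0.654 by edgeR). That of Hoxb3 was -3.81 without SnoN cKO 3, -1.01 without SnoN cKO 2 and -0.36 without both SnoN cKO 1 and 2. Hoxd3 had 14, 24 and 6 counts against 3, 0 and 10. In all 3 genes SnoN cKO 3 had more counts than wild type 3, and SnoN cKO 2 had at most 1. The summed level of the group was 4.62, 6.44 and 1.95 CPM in wild type and 1.02, 0.0677 and 2.82 CPM in SnoN cKO. Reads of Hoxb3 and Hoxd3 are uncertain, because in GENCODE M21 52.9% of the exonic length of Hoxb3 lies opposite Hoxb3os, 53.1% of that of Hoxd3 lies under Gm28230 on the same strand, and the library kit does not record strand.

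Group 4 acts at the border of hindbrain and spinal cord. Hoxc4 had 12, 38 and 13 counts in wild type and 2, 0 and 27 in SnoN cKO, so SnoN cKO 3 stood above wild type 1 and 3. Its log2 fold change was -1.25 (SE 0.80, adjusted p = 0.695 by edgeR), and without SnoN cKO 1 and 2 it was 0.050. Without SnoN cKO 3 it was -4.22, without SnoN cKO 2 -0.69 and without wild type 2 -0.61, so single libraries moved it both ways. Hoxb4 had 4, 16 and 7 counts against 5, 0 and 6, and Hoxa4 had 7, 16 and 1 against 6, 0 and 3. Hoxd4 had 9 counts in all. Every member of the group was at 0 in SnoN cKO 2.

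Group 5, used in the caudal hindbrain and cervical cord, had its highest knockout library below its lowest wild type library. The 3 genes summed to 29, 59 and 18 counts in wild type and to 3, 3 and 11 in SnoN cKO. In CPM that was 2.27, 3.92 and 1.403 against 0.235, 0.203 and 0.645, with means of 2.53 ± 1.28 (SD, n = 3) and 0.361 ± 0.247 (SD, n = 3) and a ratio of 0.143. The ratio was 0.0870 without SnoN cKO 3 and 0.255 without SnoN cKO 1 and 2. No p is given for this sum, and with 3 libraries a group the smallest two-sided p of an exact permutation test is 0.1.

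**Figure D2:**
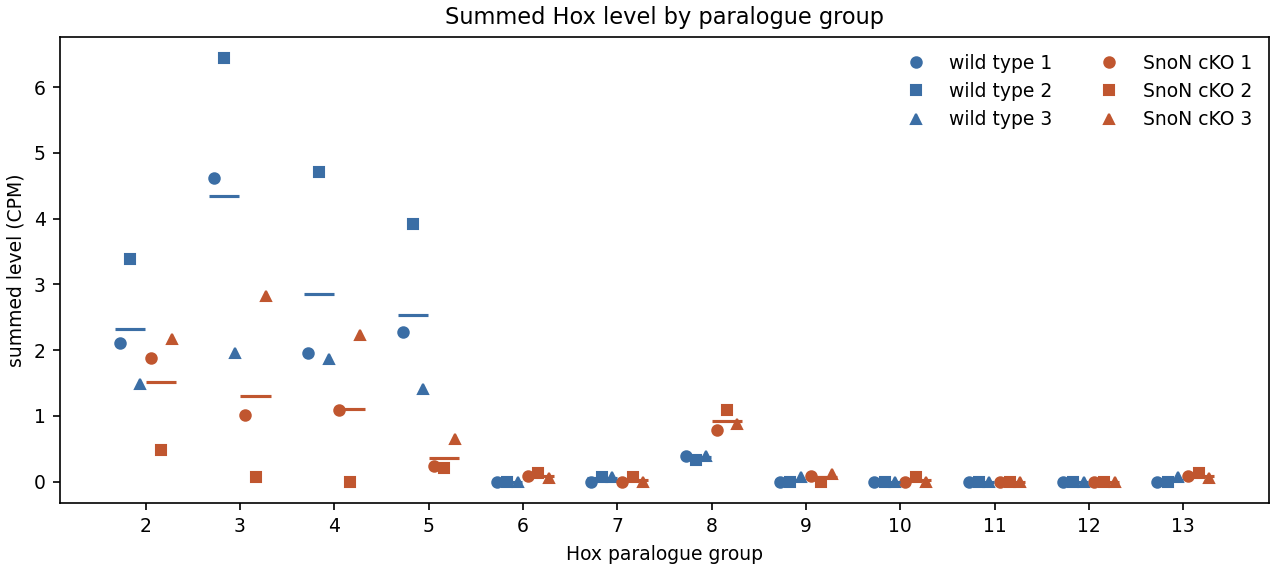
Summed level of the members of each paralogue group from 2 to 13, in CPM, with a point for each library and a line at the mean of each genotype. The genotypes overlap in groups 2 to 4 and are apart in group 5, where wild type lies between 1.403 and 3.92 CPM and SnoN cKO between 0.203 and 0.645 CPM, and in groups 6 and 8, where SnoN cKO is higher, with 4 counts in all in group 6.

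Hoxa5, a gene of the phrenic motor column and of caudal hindbrain nuclei, had most of the reads of group 5. It had 17, 28 and 13 counts in wild type and 3, 0 and 6 in SnoN cKO. In CPM these were 1.33, 1.86 and 1.01 against 0.235, 0 and 0.352, so the lowest wild type library stood above the highest SnoN cKO library. The log2 fold change was -2.76 (SE 0.57), with an unadjusted p of 0.000706 and an adjusted p of 0.637 by edgeR, of a gene that the filter let in only because wild type was high. Over the libraries left out in turn it lay between -3.58 and -2.20. With SnoN cKO 3 alone as the knockout it was -1.98, where the lone library is assumed to vary like the others. Hoxb5 had 10, 23 and 2 counts against 0, 1 and 3, and Hoxc5 had 2, 8 and 3 against 0, 2 and 2. Hoxb5 overlapped, since SnoN cKO 3 was above wild type 3. Hoxc5 did not overlap in CPM, although wild type 1 had the same count as SnoN cKO 2 and 3.

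Group 5 took a smaller part of the hindbrain Hox reads in 2 of the 3 SnoN cKO libraries. It made up 29 of 147 counts of groups 1 to 5 in wild type 1 (19.7%, exact 95% interval 13.6% to 27.1%), 59 of 287 in wild type 2 (20.6%, 16.03% to 25.7%) and 18 of 89 in wild type 3 (20.2%, 12.4% to 30.1%). In SnoN cKO 1 it was 3 of 60 (5.0%, 1.04% to 13.9%) and in SnoN cKO 3 it was 11 of 145 (7.59%, 3.85% to 13.2%). In SnoN cKO 2 it was 3 of 11, or 27.3%, with an interval from 6.02% to 61.0%, which is too wide to place that library. The 3 wild type shares lay within 1 percentage point of each other, while their totals ranged from 89 to 287 counts. The share of Hoxa2 was higher in every SnoN cKO library, with 17.0%, 15.7% and 10.1% in wild type and 31.7%, 54.5% and 22.1% in SnoN cKO, a share that also depends on the counts of groups 3 to 5. The value of SnoN cKO 2 is 6 of 11 counts (23.4% to 83.3%), and the interval of SnoN cKO 3 (15.6% to 29.7%) overlapped those of wild type 1 and 2. These intervals cover counting error only. Both shares use the same counts as the levels above and are no further support, and neither was planned.

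**Figure D3:**
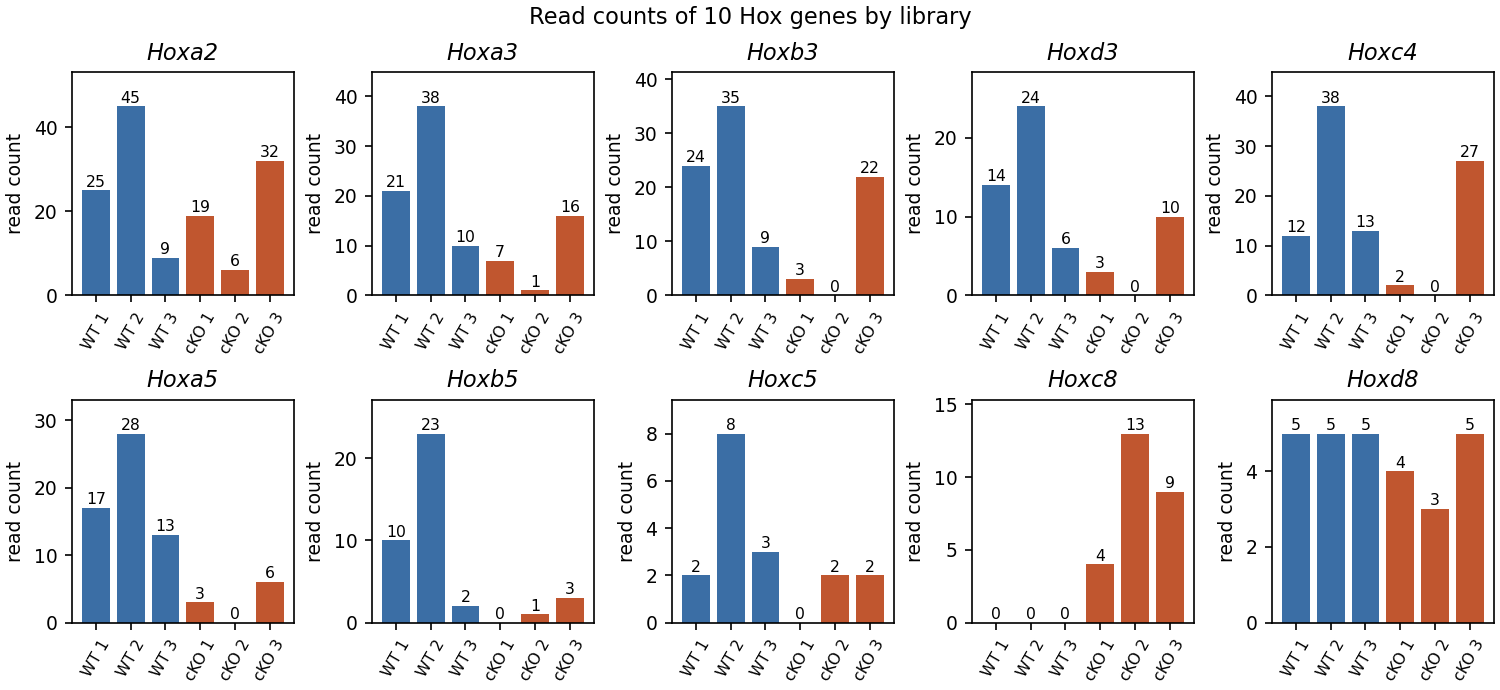
Read counts of 10 Hox genes in each library, as bars from 0 with the count on top, blue for wild type and red for SnoN cKO. Hoxa5 has at least 13 counts in wild type and at most 6 in SnoN cKO, Hoxc8 is at 0 in wild type, and Hoxd8 has 3 to 5 counts throughout.

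Hoxc8, a gene of brachial and thoracic spinal cord, had the reverse distribution. It had 0 counts in each wild type library and 4, 13 and 9 counts in SnoN cKO 1, 2 and 3. In CPM the SnoN cKO libraries were at 0.313, 0.880 and 0.528, a mean of 0.574 ± 0.286 (SD, n = 3). The library with most Hoxc8 was SnoN cKO 2, which had the fewest reads of groups 1 to 5. A total of 0 counts allows up to 3 counts over the wild type libraries together, or 0.0738 CPM. Against that limit the pooled SnoN cKO level of 0.583 CPM was at least 7.90-fold higher, a limit set by the counting error of the wild type alone. SnoN cKO 1, the lowest of the knockouts, stood 4.25-fold above the same limit. The labels do not describe the alleles, and whether these reads come from the Hoxc8 gene itself was not tested. Hoxc8 failed the filter on low counts and so had no value in the edgeR test with that filter. Its adjusted p of 0.0147, given above, is from edgeR's test without the filter. Among all 41088 genes of the table, Hoxc8 was the only gene with at least 3 counts in every SnoN cKO library and 0 in every wild type library, and 0 genes had the mirror pattern. At a minimum of 2 counts the numbers were 2 and 6 genes, and at a minimum of 1 count 63 and 63. These minimums were chosen after the values had been seen. In GENCODE M21 no exon of another gene overlaps Hoxc8 on either strand, and its neighbours in the cluster, Hoxc6 and Hoxc9, had 1 and 0 counts in all.

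Other genes of groups 6 to 13 had between 0 and 2 counts in a library, apart from Hoxd8. Hoxb6 had 1 count in each SnoN cKO library and 0 in wild type. Hoxb8 and Hoxb9 had 2, 0 and 1 and 1, 0 and 2 counts in SnoN cKO, and 0 in wild type. Leaving out Hoxc8 and Hoxd8, the 22 genes of these groups summed to 0, 1 and 3 counts in wild type and to 5, 6 and 5 in SnoN cKO. None of these 22 genes passed the filter, and in edgeR's fit without it the adjusted p of each gene with a count was at least 0.803. The division at group 6 was chosen after the values had been seen. With Hoxc8 and Hoxd8 the groups summed to 0.391, 0.399 and 0.624 CPM in wild type and to 1.02, 1.49 and 1.11 CPM in SnoN cKO, a ratio of 2.56, and without Hoxc8 the ratio was 1.34, with overlap. They made up 3.29%, 2.05% and 8.25% of all Hox counts in wild type and 17.8%, 66.7% and 11.6% in SnoN cKO, shares that also depend on the counts of groups 1 to 5. The exact 95% intervals of wild type 3 (3.63% to 15.6%) and SnoN cKO 3 (7.12% to 17.5%), for counting error only, overlapped. Hoxd8 had 5 counts in each wild type library and 4, 3 and 5 in SnoN cKO. Its genotypes were apart in CPM by less than the worth of 1 read.

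Per length of exon, Hoxa2 had the highest mean level in wild type at 1.06 ± 0.645 CPM per kb (SD, n = 3). Hoxa5 followed at 0.746 ± 0.228, Hoxc4 at 0.581 ± 0.348 and Hoxb3 at 0.385 ± 0.197 CPM per kb. In SnoN cKO the order of these levels was Hoxa2 at 0.708 ± 0.429, Hoxc4 at 0.226 ± 0.340 and Hoxc8 at 0.203 ± 0.101 CPM per kb. Neighbours in either order differed by less than the larger of their SDs, apart from Hoxa2 and Hoxc4 in SnoN cKO. Lengths were those of GENCODE M21, since no source names the authors' gene models.

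By cluster, Hoxa had the most counts, with 76, 133 and 36 in wild type and 42, 9 and 67 in SnoN cKO. Hoxb had 40, 80 and 28 against 17, 4 and 40. Hoxd had 22, 34 and 17 against 8, 4 and 19, and was the only cluster in which the genotypes were apart in CPM, at 1.33 to 2.26 against 0.271 to 1.11. Hoxc had 14, 46 and 16 against 6, 16 and 38, and 13 of the 16 counts in SnoN cKO 2 were from Hoxc8. In the Hoxa, Hoxb and Hoxd clusters SnoN cKO 2 was the lowest library, and in Hoxc it was SnoN cKO 1.

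Non-coding transcripts of the clusters were as sparse as the Hox genes themselves. Hoxaas2, an antisense transcript at Hoxa3, had 7, 21 and 7 counts in wild type and 9, 2 and 17 in SnoN cKO. Hoxb3os had 2, 11 and 5 against 1, 0 and 4, and Hotairm1 had 4, 3 and 4 against 4, 0 and 10. Hotair, Hottip, Mir10a and Mir196b were among the 10 of 15 listed transcripts with no count. Haglr, the long non-coding RNA of the Hoxd cluster, had 11, 15 and 5 counts against 2, 1 and 6. It was named after its values were seen. The genotypes did not overlap for Haglr in CPM, at 0.390 to 0.996 against 0.0677 to 0.352.

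Genes just outside the clusters gave no call. Of 12 flanking genes 9 passed the filter, 4 with positive and 5 with negative log2 fold changes, a median of -0.01 against -0.002 over all genes tested, and 0 passed the test. The homeobox genes Evx1 and Evx2, next to Hoxa13 and Hoxd13, had 5, 17 and 7 against 5, 0 and 10 counts and 32, 51 and 27 against 31, 27 and 47 counts. Evx1 was thus also at 0 in SnoN cKO 2.

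The partners of Hox proteins were far more abundant than the Hox genes. TALE homeobox genes encode cofactors that bind DNA together with Hox proteins. All 9 passed the filter, 4 with positive and 5 with negative log2 fold changes, 0 of them past the test, and a median of -0.004. Their summed level was 610 to 642 CPM in wild type against 604 to 608 CPM. Meis1 was at 160 ± 6.73 CPM in wild type against 169 ± 4.24 CPM, and each SnoN cKO library was higher, the nearest at 165.6 against 165.4 CPM. Meis2, its close relative, was at 44.8, 50.3 and 30.1 CPM in wild type and 24.4, 13.3 and 30.4 CPM in SnoN cKO, a log2 fold change of -0.88 (SE 0.26, adjusted p = 0.637 by edgeR). Pbx4 was at 11.3 ± 0.954 and 8.97 ± 0.653 CPM, with genotypes that did not overlap (log2 fold change -0.34, SE 0.11, adjusted p = 0.637 by edgeR).

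Genes that set up Hox expression gave no call either. Of 15 genes of hindbrain segmentation and retinoic acid, the signal that switches on the front end of the clusters, 9 passed the filter, 1 with a positive and 8 with negative log2 fold changes, a median of -0.09 and 0 past the test. Aldh1a2, which makes retinoic acid, was at 28.8 ± 1.10 CPM against 25.7 ± 4.65 CPM, and Cyp26b1, which degrades it, at 223 ± 9.16 and 233 ± 25.3 CPM. The caudal regulators Cdx2 and Cdx4 had no count, and Cdx1 was at 0.0664 CPM in wild type 2 and at 0 in the other libraries.

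The cofactor gene Meis2 ordered the libraries as the low-numbered Hox groups did, a likeness noticed after the values had been seen. Groups 1 to 5 together summed to 11.5, 19.1 and 6.94 CPM in wild type and 4.70, 0.744 and 8.505 CPM in SnoN cKO. From high to low the order was wild type 2, wild type 1, SnoN cKO 3, wild type 3, SnoN cKO 1 and SnoN cKO 2. The levels of Meis2 given above stood in the same order. Slc6a5, the glycine transporter of inhibitory neurons, was at 45.6, 54.1 and 42.6 CPM against 36.9, 34.4 and 48.9 CPM, with wild type 2 again highest and SnoN cKO 2 lowest. Hoxc8 followed none of these orders. These are the orders of 6 libraries, and whether the amount of caudal tissue accounts for the Hox counts was not tested.

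**Figure D4:**
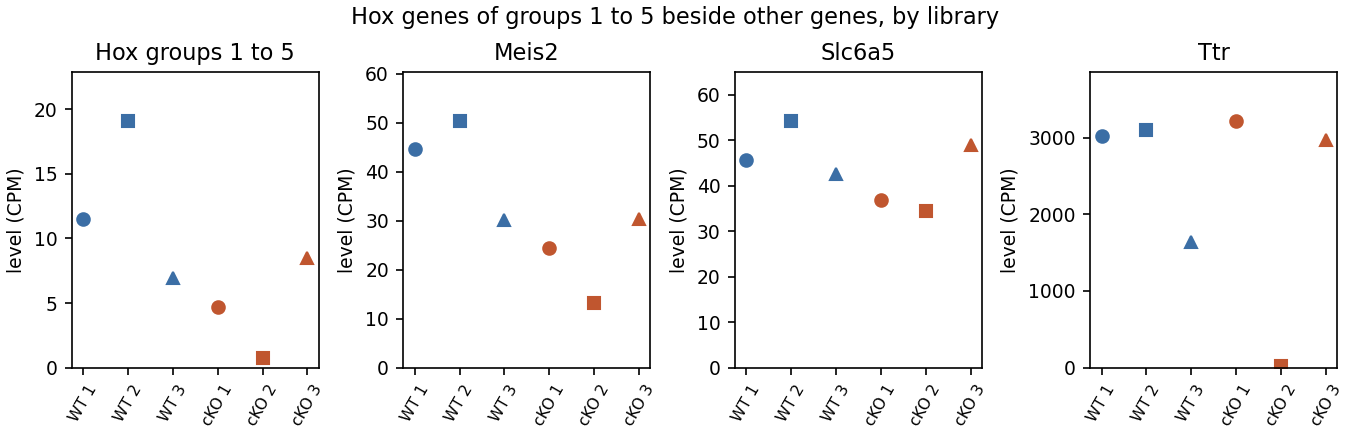
Level in CPM of Hox groups 1 to 5 together, of the Hox cofactor gene Meis2, of the glycine transporter gene Slc6a5 and of the choroid plexus gene Ttr in each library, blue for wild type and red for SnoN cKO. The Hox and Meis2 panels have the same order of libraries, with wild type 2 highest and SnoN cKO 2 lowest, while Ttr is low in SnoN cKO 2 alone, at 17.3 CPM.

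Marker lists of caudal neurons were not past the test in any gene. Of 12 genes of hindbrain and spinal interneurons, 9 passed the filter, 2 positive and 7 negative, with a median of -0.24. At an unadjusted p under 0.05 there were 2, Tal1 and Gata3, both lower in SnoN cKO without overlap and named after their values were seen, against 4.47% of all genes tested in that direction. The summed level of all 12 interneuron genes was between 108 and 124 CPM in wild type and between 103 and 116 CPM in SnoN cKO. Most of it came from Slc6a5, Tlx3 and Lbx1, with means of 47.5, 25.7 and 25.4 CPM in wild type and 40.1, 25.4 and 28.3 CPM in SnoN cKO. Whether their reads came from caudal tissue or from the cerebellum itself was not tested, so the sum is no measure of caudal tissue. Of 8 genes of motor and cholinergic neurons, 3 passed the filter, all negative, and the sum was 11.5 to 16.1 CPM against 7.71 to 12.7 CPM. Mnx1, the defining factor of spinal motor neurons, was at 0 in all 6 libraries, Phox2a had 1 count in each, and Chat had 2, 6 and 3 counts in wild type against 0, 0 and 2. The 8 genes of monoaminergic neurons summed to 12.7 to 14.5 CPM and 11.6 to 13.3 CPM.

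Tissues outside the brain can also carry Hox RNA, and their markers were read beside Hoxc8 and Hoxa5. Skeletal muscle genes summed to 22.1 to 24.1 CPM in wild type and 22.0 to 28.1 CPM in SnoN cKO, with SnoN cKO 2 highest and Ckm at no more than 0.117 CPM. Cartilage and bone genes summed to 74.3 to 132 CPM against 76.2 to 83.3 CPM, and Schwann cell genes to 9.55 to 85.6 CPM against 8.73 to 11.8 CPM, with wild type 3 highest in both. Erythroid genes summed to 20.6 to 46.0 and 22.4 to 38.7 CPM, endothelial genes to 364 to 374 and 377 to 410 CPM, and microglia genes to 94.5 to 107 and 94.5 to 114 CPM. Genes of meninges and fibroblasts summed to 2071 to 2463 CPM against 1595 to 2294 CPM, with all 11 log2 fold changes negative and a median of -0.13. In choroid plexus genes SnoN cKO 2 was at 182 CPM against 2144 to 3983 CPM in the other libraries. Of these lists the endothelial sum alone was apart in the direction of Hoxc8, and the part of these tissues in the Hox counts was not tested.

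Markers of the labelled tissue were abundant. Genes of cerebellar cortex and the granule lineage, such as Zic1, Car8 and Neurod1, summed to 3852 to 4317 CPM in wild type and 4093 to 4493 CPM in SnoN cKO. Forebrain genes summed to 43.9 to 50.1 and 47.0 to 48.1 CPM, with most of it from Neurod6. Midbrain genes summed to 41.4 to 76.1 and 46.0 to 53.2 CPM. Wild type 1 stood apart in them, with Tcf7l2 at 48.4 CPM against 15.8 to 19.0 CPM in every other library.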

How the data were processed

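Single-end libraries of mouse cerebellum RNA were made with the NEBNext Ultra kit, per the labels' protocols, which does not mark strand. The deposited table holds whole-number counts of reads per gene, not normalized. The tools named are STAR 2.0.4b, featureCounts 1.4.5 and Subread, with build mm9, per the submitters' processing notes, and no annotation is named. Gene lengths, overlaps and windows came from GRCm38 and were used by symbol. Rows that repeated a symbol with the same counts (140, none of them Hox) were kept once. Genotypes were compared with edgeR 4.0.16 in R 4.3.3 (filterByExpr at a minimum count of 10, TMM, quasi-likelihood test, two-sided, Benjamini-Hochberg adjustment over all 15457 genes, threshold 0.05). DESeq2 1.42.0, limma-voom (limma 3.58.1), no filter, other scalings, a replicate block, labelled sex and left-out libraries were tried. The fit was tested on simulated data, with the altered genes more abundant than any Hox gene here. Labels do not say whether animals were littermates, so p-values measure the spread between these libraries. Total counts were 12605870 to 17757711, and after scaling with the TMM factors 1 read was worth about 0.0587 to 0.0783 CPM. Hox genes with at least 10 counts were named, and of other lists up to 3 genes of highest mean CPM and genes whose role bears on the clusters. Further genes of the lists (defining markers at or near 0, Evx1 and Evx2, non-coding transcripts) and Hoxd1, Hoxd4, Hoxb6, Hoxb8 and Hoxb9 were named for their role or their separation after their values were seen. The members and lists were chosen with earlier results of these data known. Some genes that the naming rule covers are not reported here.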

Additional observations from a re-analysis of the deposited data

How the results depend on the processing

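The number of genes past the threshold was 0 with all libraries, and it was 39 without the filter on low counts, 4 by DESeq2, 1 with labelled sex as a term and 7 without SnoN cKO 1 and 2, an alternative added after the data were seen. Labelled sex did not match the Xist and Ddx3y counts of SnoN cKO 1 and 2, so that term does not adjust for sex as read from RNA. The range over libraries left out in turn was 0 to 0 genes. Hox genes past the threshold were 2 without the filter, Hoxa5 and Hoxc8, and 0 in each other alternative except DESeq2, which gave no Hox gene an adjusted p. The adjusted p of Hoxa5 was 0.00854 without the filter, where its log2 fold change was -2.75, and lay between 0.348 and 0.962 in the other edgeR and limma fits. The log2 fold change of Hoxc4 turned to 0.050 without SnoN cKO 1 and 2. Of the 26 Hox genes with a count, 16 had a lower mean in SnoN cKO, against 50.3% of all genes with a count. With a library left out there were 16 or 17. All 5 past the filter were lower, a count that the filter favours. The median log2 fold change of all genes tested was -0.002. The summed Hox ratio of SnoN cKO over wild type was 0.308 to 0.603 with a library left out and 0.741 without SnoN cKO 1 and 2. The ratio of groups 6 to 13 was 2.56, and 1.34 without Hoxc8. The log2 fold change of Skil was -0.23 to -0.21 with a library left out. Replicate numbers did not pair the libraries, since same-numbered libraries deviated with correlations of -0.04, -0.32 and -0.18. With the replicate block 0 genes passed, 786 had an unadjusted p under 0.05 against 1187 without it, and the log2 fold change of Hoxa5 was -2.74 and that of Skil -0.22. No library correlated best with its own number. Members that failed the filter with all libraries were tested only in the fits without it or where leaving out a library let them pass.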
